A study of Mus musculus with 6 samples.

Results

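Dendritic cells are the antigen-presenting cells that link innate and adaptive immunity, and they arise in bone marrow from Flt3-positive progenitors. Plasmacytoid dendritic cells (pDCs) depend on the transcription factor Tcf4 and are known for type I interferon release after Tlr7 or Tlr9 sensing. Conventional dendritic cells (cDCs) load peptides on MHC class II and fall into a type 1 branch, marked by Xcr1 and Clec9a, and a type 2 branch, marked by Cd209a among others. Both kinds of cell were sought here among 32762 single cells of c-Kit-enriched mouse bone marrow.

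A cell had to have 500 to 7500 detected genes, at most 15% mitochondrial counts and no unique molecular identifier (UMI) of Cd79a (a B cell receptor subunit) or C1qa (a macrophage complement gene). The plasmacytoid arm needed at least 2 UMIs of Siglech, a surface lectin of mouse pDCs. The conventional arm needed at least 5 UMIs of Cd74 (the class II invariant chain), 2 of H2-Aa and 2 of H2-Ab1 (the chains of the I-A molecule). These limits chose 232 cells, 0.708% of all, of which 59 were in the plasmacytoid arm (0.18%) and 173 in the conventional arm (0.528%). Because the members were chosen on measured values, levels of the arms beside other cells are given as a description with no test.

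All mice were BALB/c, 10 weeks of age at harvest. The NTB group carried no tumor and was not treated. The vehicle group carried 4T1 tumors, a transplantable mouse mammary carcinoma line, and received daily intraperitoneal DPBS for 2 weeks. The BRQ group carried 4T1 tumors and received daily intraperitoneal brequinar, an inhibitor of the pyrimidine synthesis enzyme DHODH, at 10 mg/kg for 2 weeks. Each of 3 pools was a single lane with 1 mouse per group, so there were 9 mice, and the marrow was magnetically enriched for c-Kit, a receptor that mature dendritic cells are not known for.

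The mouse of origin was read from 3 hashtag antibodies, and their barcode sequences are shown because every comparison between groups rests on them. In 5′ to 3′ direction they were as follows.
NTB, hashtag B0301: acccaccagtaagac
vehicle, hashtag B0302: ggtcgagagcattca
BRQ, hashtag B0303: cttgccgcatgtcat

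Hashtag calls gave 1 mouse to 21 of the 59 plasmacytoid cells (35.6%) and to 73 of the 173 conventional cells (42.2%), against 48.8% of all other cells. Another 54.2% and 47.4% of the arms were called negative, so most members had no mouse. Median UMIs per cell were 6686 in the plasmacytoid arm, 5184 in the conventional arm and 9502.5 in the other cells. Scrublet marked 10.2%, 8.67% and 4.51% of them as likely doublets, and these cells were kept. The pools held 100700982 to 135564079 gene UMIs, and 127 of 39360 barcodes occurred in more than 1 pool. No barcode was shared by members of different pools, and 2 member barcodes also occurred in another pool.

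Levels below are CPM, the counts of a gene scaled to a fixed total of UMIs, summed over the cells of an arm in each pool and given as mean with SD over n = 3 pools. For comparison the same was done in 940 monocyte-gated cells (at least 2 UMIs each of Csf1r and Ly6c2) and in 277 B-gated cells (at least 2 UMIs of Cd79a). Both gates also rest on measured values.

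The plasmacytoid arm was found in every pool, with 19, 16 and 24 cells. Siglech, which chose the arm, was at 2 to 18 UMIs per cell (median 3). The transcription factors of this lineage, which the rule did not use, stood far above the other cells. Tcf4, the pDC master regulator, was at 634, 1030 and 959 CPM in pools 1, 2 and 3, a mean of 873 (SD 210), against 67.3 in the other cells, 103 in monocyte-gated and 275 in B-gated cells. Irf8, needed by pDCs and type 1 cDCs, was at 1390, 1920 and 1280 CPM against a mean of 98.1. Runx2, which guides pDC exit from marrow, was at 538 CPM (SD 119) against 32.4. Each of these 3 factors was higher in the lowest pool of the arm than in the highest pool of the other cells.

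Surface and other lineage genes gave a similar picture. Bst2, the tetherin molecule on mouse pDCs, was at 427 CPM (SD 96.9) against 41.1. Cox6a2, a respiratory subunit known from pDCs and muscle, was at 249, 366 and 361 CPM, with 0.661 in the other cells and no UMI in the conventional arm. Flt3, the receptor for the main dendritic cell growth factor, was at 355 CPM (SD 98.9) against 12.7. Of 24 genes on a pDC identity list, without Siglech, 18 lay above the other cells in every pool, 2 below and the rest overlapped. Over all 21998 genes with a UMI the shares were 11.6% above and 36.3% below. Over 5828 genes with at least 20 CPM in the other cells they were 23.3% and 19.6%.

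Ccr9, the chemokine receptor of mature pDCs, had a UMI in 9 of 59 cells (15.3%), at 22.6, 34.8 and 118 CPM. Pool 3 stood above the other 2 pools for this gene. Thinned to 2000 UMIs, Ccr9 was in 10.2% of the cells (exact 95% interval 3.82 to 20.8), 3.03% of the conventional arm and 0.0758% of other cells. Ptcra and Cd300c had no UMI in any of the 59 cells. Of 17 genes of Tlr7 and Tlr9 sensing and interferon induction, 7 lay above the other cells in every pool and 1 below. Tlr7 had a UMI in 6 cells (10.2%) and Tlr9 in 0 of 59, which allows a share of cells with a Tlr9 UMI of up to 5.08%. Irf7, the amplifier of interferon genes, was at 0, 8.71 and 26.9 CPM. Unc93b1, the chaperone that carries these receptors to endosomes, was at 290 CPM (SD 127) against 76.5, and the interferon receptor chain Ifnar2 at 221 (SD 54.4) against 72.6.

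The limit on Siglech cut through a continuous range. The 23 cells with exactly 2 UMIs had 568 CPM of Tcf4, 1070 of Irf8 and 222 of Bst2. The 36 cells with 3 or more had 1050, 1750 and 543 CPM, and the 44 excluded cells with 1 UMI had 339, 841 and 85.9. Flt3 did not follow that order, with 398 CPM at 2 UMIs, 331 at 3 or more and 247 at 1. The excluded cells were deeper, at a median of 8485.5 UMIs against 7033 and 6279.

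**Figure D1:**
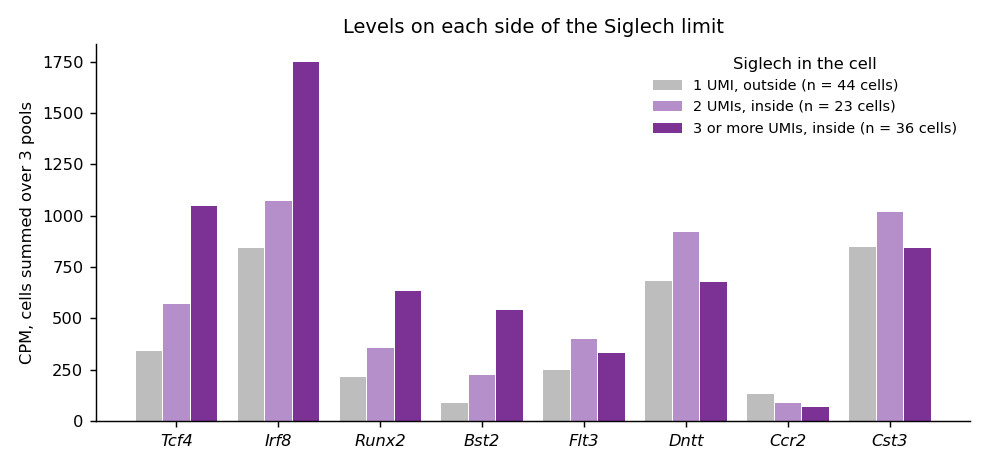
Bars give CPM (cells summed over the 3 pools) of 8 genes in cells with 1, 2, or 3 or more UMIs of Siglech. Tcf4 stood at 339, 568 and 1050 CPM in that order, while Cst3 stood at 850, 1020 and 843.

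Lymphoid genes were also found in the plasmacytoid arm, as they were in B-gated cells. Dntt, the terminal transferase of early lymphocytes, was at 521, 714 and 1060 CPM against 16.1 in the other cells and 2.16 in the conventional arm. Il7r, the interleukin-7 receptor, was at 249 CPM (SD 71.2) against 2.93, and Rag2, a recombinase subunit, at 36.1 (SD 15.4) against 1.13. Ighm was at 898 CPM (SD 269), which overlapped the other cells, and at 51100 in B-gated cells. Of 14 B cell genes, 4 lay above the other cells in every pool, 6 below, and 5 had no UMI in the arm, among them Ms4a1, Pax5 and Fcmr. Those above were Blnk, a B cell receptor adaptor, at 86.3 CPM (SD 34.3) against 2.78 and in 37.3% of cells, and Cd79b, Cd22 and Ebf1. Ebf1 was at 33.8 CPM (SD 17.7) against 10.1 in the other cells and 1070 in B-gated cells, and Igkc lay below the other cells in each pool. Summed over the B cell list, the arm ranged from 826 to 1370 CPM over pools and the other cells averaged 2190. The part of B lineage RNA in these values was not tested.

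Dntt divided the arm. It was detected in 23 cells (39%) and absent from 36, with median depths of 8866 and 5383 UMIs. Cells with Dntt had 592 CPM of Irf8 (SD 30.8), 86.6 of Bst2 (SD 40.5) and 13.5 of Ly6c2 (SD 5.37). Cells without it had 2440 (SD 434), 767 (SD 187) and 312 (SD 71). Il7r ran the other way, at 378 CPM (SD 165) with Dntt and 126 (SD 68.9) without, as did Flt3, at 464 (SD 150) and 242 (SD 30.3). Siglech itself was at 364 and 726 CPM. Ccr9 and Dntt shared 1 cell, with Ccr9 alone in 8 cells and Dntt alone in 22. Klk1, which was absent from all other cells, had UMIs in 6 cells, all of them without Dntt.

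**Figure D2:**
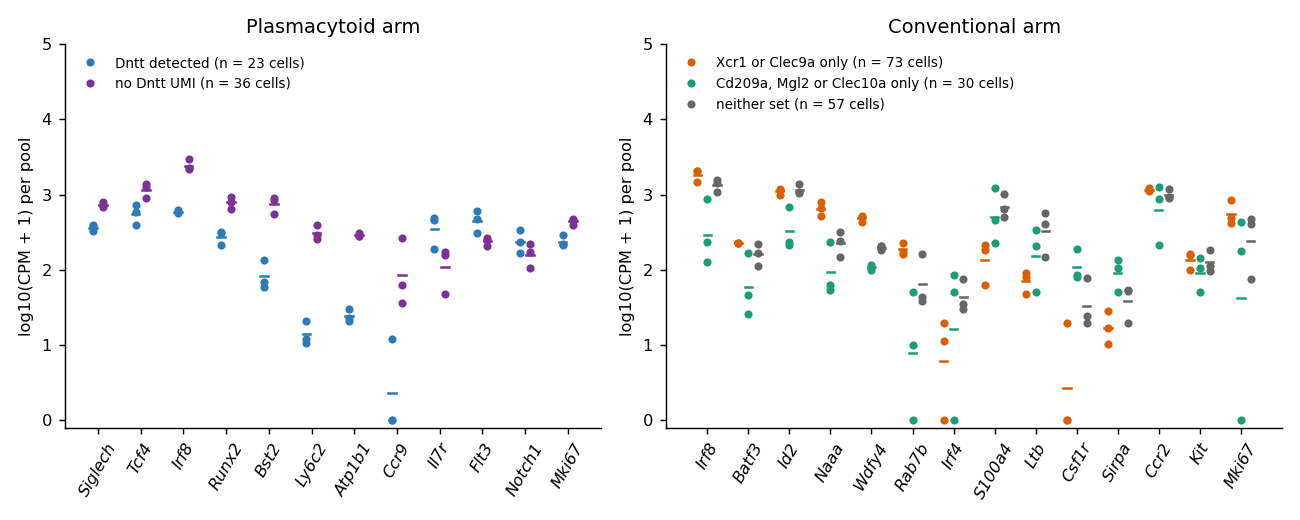
Points give log10(CPM + 1) in each of the 3 pools and short lines their mean, on the left for plasmacytoid cells with (n = 23) and without (n = 36) a Dntt UMI and on the right for 3 classes of conventional cells. In every pool Irf8, Bst2 and Ly6c2 were higher without Dntt, and Naaa and Wdfy4 were higher in cells with only Xcr1 or Clec9a than in cells with only Cd209a, Mgl2 or Clec10a.

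The 13 remaining conventional cells, which had both sets of markers, are not drawn. In the plasmacytoid arm the proliferation gene Mki67 had a UMI in 33 of 59 cells, 55.9%. Thinned to 2000 UMIs per cell it was 44.1% (exact 95% interval 31.2 to 57.6), against 33.8% in the other cells and 29.1% (22.3 to 36.7) in the conventional arm. The replication clamp Pcna was at 289, 392 and 323 CPM in the plasmacytoid arm and at 270 in the other cells.

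**Figure D3:**
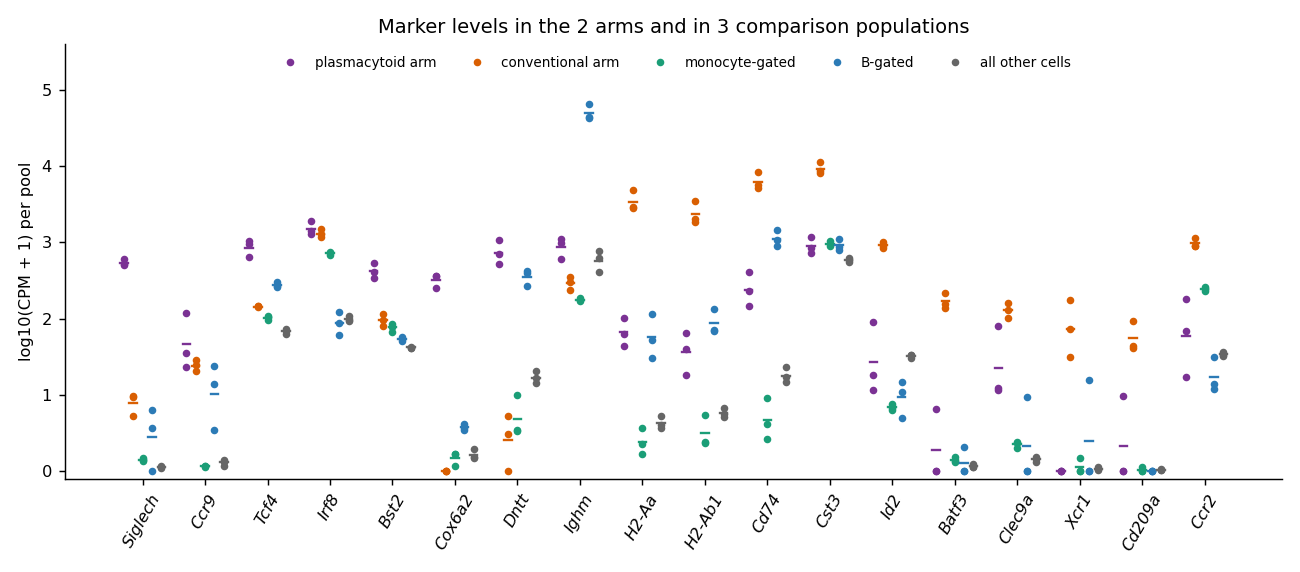
Points give log10(CPM + 1) in each of the 3 pools and short lines their mean, for 18 genes in the plasmacytoid arm, the conventional arm, monocyte-gated cells, B-gated cells and all other cells. Tcf4 and Cox6a2 were highest in the plasmacytoid arm, and Cst3, Id2, Batf3 and Clec9a in the conventional arm. Siglech, H2-Aa, H2-Ab1 and Cd74 chose the arms.

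The conventional arm held 62, 54 and 57 cells in the 3 pools. The genes of its rule were well above their limits, with a median of 39 UMIs of Cd74 (6 to 181), 20 of H2-Aa (2 to 134) and 13 of H2-Ab1 (2 to 104). Only 4 cells lay at a limit and 7 excluded cells lay 1 UMI under it. The limits on class II alone were passed by 229 cells, of which 12 were removed for Cd79a and 41 for C1qa, and 3 cells that passed both arms were counted as plasmacytoid. The excluded 7 cells had 5280 CPM of Cst3 and 565 of Id2, beside 9170 and 902 in the 169 cells above every limit.

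H2-Eb1, the I-E beta chain, was at 1090, 2270 and 1180 CPM against a mean of 1.58 in the other cells and 39.2 in B-gated cells. Ciita, the master coactivator of class II transcription, was at 153, 272 and 197 CPM against 0.223. The peptide exchange gene H2-DMa was at 409 CPM (SD 107) against 35.9, H2-DMb1 at 195 (SD 34) against 2.81, and the lysosomal thiol reductase Ifi30 at 550 (SD 75.3) against 17.8. Of 16 class II presentation genes outside the rule, 14 lay above the other cells in every pool. Rfxank lay below them, at 2.17 to 5.92 CPM. Pool 2 was highest for Cd74, H2-Aa, H2-Ab1, H2-Eb1 and Ciita alike. BALB/c carries other class II alleles than the C57BL/6J reference behind the mm10 counts, and the effect on these counts was not tested.

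The I-A and I-E genes lie side by side on chromosome 17 (GRCm38): H2-Ab1 at 34257689 to 34269419 on the plus strand, H2-Aa at 34282744 to 34287823 on the minus strand and H2-Eb1 at 34305867 to 34316674 on the plus strand. Their promoters are known for a Y box with the letters CCAAT. The 60 bases around the first match to its reverse complement ATTGG, in capitals, are shown from RefSeq (GRCm38.p6) because H2-Aa helped choose the arm and H2-Eb1, outside the rule, had a UMI in 96% of its cells.
H2-Aa, minus strand, chr17:34287852-34287911: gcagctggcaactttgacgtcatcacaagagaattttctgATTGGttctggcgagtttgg
H2-Eb1, plus strand, chr17:34305768-34305827: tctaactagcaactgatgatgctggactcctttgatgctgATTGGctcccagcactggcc

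ATTGG started 48 bases before the H2-Aa start and 59 bases before the H2-Eb1 start. CCAAT or ATTGG, searched on both strands, also occurred in 12289 of 32851 RefSeq promoters of 300 bases (37.4%), so a match alone is common. The BALB/c sequence of these promoters was not analysed here.

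The cDC identity genes that the rule did not use were present. Cst3, a protease inhibitor abundant in cDCs, was at 8530, 11300 and 8140 CPM against 587. Id2, the inhibitor of pDC fate, was at 918 CPM (SD 83.5) against 31.6 in the other cells and 39.6 in the plasmacytoid arm. Naaa, a lipid hydrolase of type 1 cDCs, was at 428 (SD 147) against 10.4, and Batf3, their transcription factor, at 171 (SD 42.2) against 0.178. Irf8 was at 1480, 1270 and 1170 CPM, in the same range as the plasmacytoid arm. All 15 genes of a shared cDC list and 14 of 15 type 1 genes lay above the other cells in every pool, against 8 of 15 type 2 genes.

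Of 12 monocyte genes, 9 lay above the other cells in every pool and 2 below, and their sum was 3040 to 3630 CPM against 1550 to 2080. Ccr2, the monocyte egress receptor, was at 898, 1150 and 887 CPM and in 89% of cells, against 245 CPM in monocyte-gated cells. The monocyte markers Ly6c2 and F13a1 lay below the other cells in each pool, at 44.4 to 66.1 and 38.5 to 53.3 CPM, beside 564 and 639 in monocyte-gated cells. Csf1r was at 26.6 to 42.6 CPM, above the other cells (17.9) in every pool. Csf1r and Ly6c2 set the monocyte gate, so their higher level there was fixed by it. Of 12 macrophage genes, 4 (33.3%) lay below the other cells in every pool, beside 37.8% of all 22017 genes with a UMI. Among the 4 were Cd5l, with no UMI, and C1qc, at up to 2.17 CPM. Cd68, a lysosomal glycoprotein, lay above them at 67 CPM (SD 13.8) against 6.73, and the rest overlapped. C1qa was removed by the rule. Of 14 B cell genes, 11 lay below the other cells in every pool, and Ms4a1, Ebf1 and Pax5 had no UMI in the 173 cells. Cd22, an inhibitory lectin of B cells, lay above them at 42.6, 62.1 and 41.2 CPM against 0.16 and was in 24.9% of cells. Ighm had a UMI in 76.3% of cells, at 295 CPM (SD 54.3) against 598.

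Of 17 genes of activated and migratory cDCs, 6 lay above the other cells in every pool and 3 below, and their sum was 424 to 512 CPM against 85.3 to 117. Marcks, a membrane substrate of protein kinase C, made up most of it at 334 CPM (SD 67.7) and was in 76.9% of cells. Birc3 was in 23.1% and Nfkb2 in 15%. Ccr7 had a UMI in 1.16% of cells, Fscn1 in 1.73%, Cd80 in 1.73% and Ccl22 in 0.578%, and Ccl17 in none. Kit, the receptor used for the enrichment, had a UMI in 90 of 173 cells (52%), at 123 CPM (SD 24.5) against 77.2 in the other cells. Thinned to 2000 UMIs, Kit was in 24.8% of conventional cells (18.5 to 32.2), 11.9% of plasmacytoid cells (4.91 to 22.9) and 12.7% of other cells. For 8 conventional cells the depth was too low for thinning.

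Type 1 and type 2 markers met in part. Xcr1 was found in 23 cells, Cd209a in 28 and both in 0. Clec9a was found in 82 cells, of which 19 also had Xcr1 and 6 had Cd209a. Thinned to 2000 UMIs, these 3 genes were in 7.27% (Xcr1), 10.9% (Cd209a) and 23% (Clec9a) of the arm, against 0.00689%, 0.0138% and 0.107% of other cells. By these genes with Mgl2 and Clec10a, 73 cells had only Xcr1 or Clec9a, 30 had only type 2 markers, 13 had both and 57 had neither. The pools held 20, 27 and 26 cells of the first class and 10, 11 and 9 of the second. Cd209a without Clec9a or Xcr1 was found in 22 cells, so part of the second class held only Mgl2 or Clec10a. In the other cells Mgl2 was at 25.5 CPM, beside 0.0495 for Cd209a and 1.42 for Clec10a.

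Other genes differed between these classes. In cells with only Xcr1 or Clec9a, Naaa was at 521, 806 and 656 CPM, against 62.3, 230 and 53.6 in cells with only type 2 markers. Wdfy4, needed for cross-presentation, was at 485 (SD 49.5) and 107 (SD 8.47), and Irf8 at 1850 (SD 327) and 409 (SD 404). The calcium-binding gene S100a4 was lower in the first class, at 153 CPM (SD 81.1) against 639 (SD 527), and the pools of the classes did not overlap. Csf1r had 4 UMIs in the 73 cells and 28 in the 30. The 57 cells with neither set had 1350 CPM of Irf8 (SD 239), 1170 of Id2 (SD 177) and 714 of S100a4 (SD 257), and were shallower, at a median of 4612 UMIs against 6230 in the first class.

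Neutrophil RNA was present in both arms. S100a9, an abundant neutrophil calgranulin, was at 11800, 670 and 5670 CPM in the plasmacytoid arm, 19700, 6870 and 24800 in the conventional arm and 36400 in the other cells. It had a UMI in 98.3% of the cells of either arm. Of the 10 neutrophil genes, 9 lay below the other cells in every pool in the plasmacytoid arm and 5 in the conventional arm. Mpo, a primary granule enzyme, was at 905 to 1720 and 887 to 1480 CPM against 3840. Pool 2 had the lowest S100a9 in both arms, and the part of neutrophil RNA in the results was not tested.

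Dhodh, the target of brequinar, was in 6.78% of plasmacytoid cells, at 5.39 to 11.3 CPM, and in 3.47% of conventional cells, at 2.17 to 6.4 CPM, with 10.2 in the other cells. Of 24 pyrimidine genes, 1 lay above and 14 below the other cells in every pool in the conventional arm, and 4 above and 8 below in the plasmacytoid arm. Of 25 S phase genes, 0 lay above and 22 below in the conventional arm, and 5 above and 2 below in the plasmacytoid arm. Of 35 endoplasmic reticulum chaperone genes, 2 lay above and 25 below in the conventional arm, and 5 above and 8 below in the plasmacytoid arm. For the conventional arm 22% of the 5828 genes with at least 20 CPM in the other cells lay above and 31.2% below.

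The first comparison between groups asked how the shares of both arms differed between NTB, vehicle and BRQ marrow. The plasmacytoid share was 0%, 0.23% and 0.0817% of singlets in the NTB mice of pools 1, 2 and 3. It was 0.216%, 0% and 0.0793% in vehicle mice and 0.0778%, 0.215% and 0.0854% in BRQ mice. These shares rest on 0 to 6 cells per mouse, and the groups overlapped. BRQ and NTB mice did not overlap under 2 alternatives, in opposite directions. With hashtag ratios NTB mice had 0.284%, 0.338% and 0.129% and BRQ mice 0.0941%, 0.11% and 0.0962% (exact permutation p = 0.1). With the 500 and 7500 limits read as UMIs the NTB shares were 0%, 0.169% and 0.178% and the BRQ shares 0.252%, 0.432% and 0.295% (exact permutation p = 0.1), from 0 to 3 cells per mouse. The 2 mice without a plasmacytoid cell had 554 and 382 singlets, where 3 cells would be 0.542% and 0.785%. The means were 0.104% (SD 0.116), 0.0984% (SD 0.109) and 0.126% (SD 0.0774), with n = 3 mice each. The two-sided exact permutation p was 0.8 for vehicle against NTB, 0.8 for BRQ against vehicle and 0.9 for BRQ against NTB, each 1 after adjustment over the 6 comparisons of both arms.

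The conventional share was 0.361%, 0.918% and 0.613% in NTB mice, 0.719%, 0% and 0.159% in vehicle mice and 0.272%, 0.388% and 0.256% in BRQ mice. Vehicle mice spanned the widest range, and the vehicle mouse of pool 2 had no member among 382 singlets. The NTB mouse of pool 1 lay below the highest BRQ mouse, so these groups overlapped over all pools. Within pools BRQ minus NTB was -0.0887, -0.53 and -0.357 percentage points, all of 1 sign (exact sign-flip permutation p = 0.25, the smallest that 3 pools allow). The mean was 0.631% (SD 0.279) in NTB, 0.293% (SD 0.378) in vehicle and 0.305% (SD 0.0718) in BRQ mice. BRQ was lower than NTB by a mean of 0.325 percentage points (exact permutation p = 0.2), vehicle was lower than NTB by 0.338 (p = 0.3), and BRQ and vehicle differed by 0.0127 (p = 1). With the 500 and 7500 limits read as UMIs, 177 to 1123 singlets per mouse were left. The NTB mouse of pool 1 and the vehicle mice of pools 2 and 3 then had no conventional cell. The difference was -0.000717 for BRQ minus NTB and -0.181 for vehicle minus NTB. In the main setting, leaving out the pool 2 NTB mouse gave -0.182 and -0.194. For vehicle minus NTB it was -0.551 without the vehicle mouse of pool 1 and -0.192 without that of pool 2. BRQ and NTB mice did not overlap without Scrublet doublets (NTB 0.388%, 0.95% and 0.512%, BRQ 0.205%, 0.361% and 0.268%). Nor did they with stricter arms (NTB 0.361%, 0.689% and 0.49%, BRQ 0.272%, 0.345% and 0.299%). Without cells holding B cell transcripts NTB had 0.361%, 0.918% and 0.572% and BRQ 0.194%, 0.345% and 0.213%. In each of these BRQ was lower (exact permutation p = 0.1). The smallest p that 3 against 3 mice allow is 0.1, so no share could pass 0.05. The mice had 382 to 2780 singlets, so the counting error of a share differed between them.

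**Figure D4:**
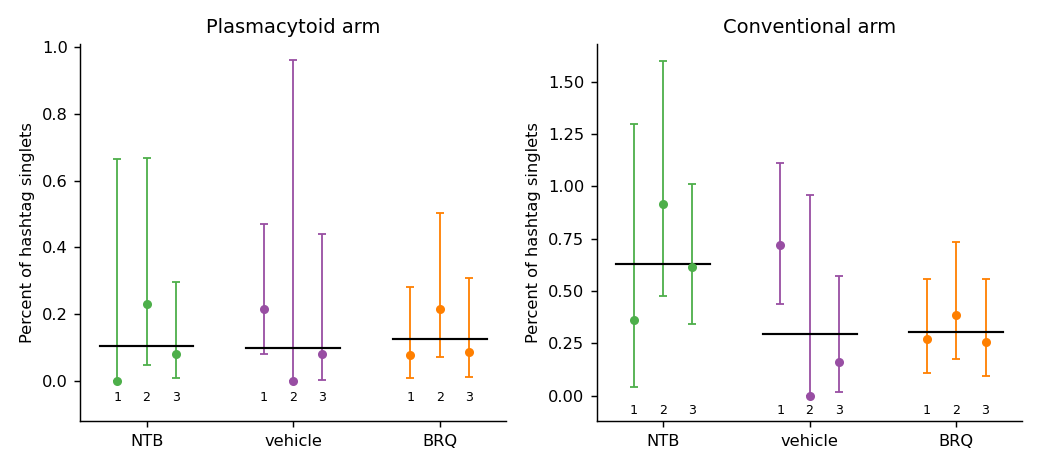
Points give the share of each mouse's singlets that fell in the plasmacytoid (left) and conventional (right) arm, numbered by pool, with exact 95% binomial intervals for counting error and black lines for the group mean (n = 3 mice). The conventional means were 0.631% in NTB, 0.293% in vehicle and 0.305% in BRQ mice, and the ranges overlapped.

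The second comparison asked which genes differed between groups within each arm, in counts summed per mouse over mice with at least 5 cells. In the plasmacytoid arm only the vehicle mouse of pool 1 (6 cells) and the BRQ mouse of pool 2 (5 cells) reached that, so no contrast had replicates at that minimum. With a minimum of 1 cell, edgeR tested 167 genes and called 0 in each contrast. Unadjusted, 20 genes had p under 0.05 for vehicle against NTB, 6 for BRQ against vehicle and 6 for BRQ against NTB. The 2 NTB mice with plasmacytoid cells had 2360 and 3180 CPM of Irf8, from 53 and 28 UMIs. Vehicle mice had 961 and 1180 CPM of it, and BRQ mice had 2150, 1120 and 97.9, the last from 1 UMI. The ranges of NTB and vehicle mice did not overlap for Irf8, but they rested on 1 to 6 cells per mouse, and 71 of the 167 tested genes (42.5%) did not overlap between these mice. Dntt had no UMI in the 5 plasmacytoid cells of NTB mice, too few to set a low limit, and it was absent from 36 of all 59 cells. Vehicle mice had 89 and 23 Dntt UMIs from 6 and 1 cells, and BRQ mice had 0, 57 and 15 from 2, 5 and 2 cells.

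In the conventional arm 2 NTB mice (12 and 15 cells), 1 vehicle mouse (20 cells) and 3 BRQ mice (7, 9 and 6 cells) qualified, so only BRQ against NTB had replicates in both groups. With a minimum of 1 cell, edgeR tested 1300 genes and called 0 for vehicle against NTB (32 at an unadjusted p under 0.05) and 0 for BRQ against vehicle (24). At the minimum of 5 cells, edgeR tested 2119 genes for BRQ against NTB and called 0, or 0% of those tested, at an adjusted p under 0.05. Unadjusted, 65 genes had p under 0.05 in edgeR and 23 in DESeq2, which called 0 as well. The groups did not overlap for 302 genes (14.3%). The count rested on single mice: it was 13 without the BRQ mouse of pool 1, 6 and 2 without the NTB mice of pools 3 and 2, and 2 without the BRQ mouse of pool 3. Below, TMM-scaled CPM is given for each mouse.

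The 5 genes with the smallest p are named although none was called at these settings. Pcna was at 539 and 386 CPM in the NTB mice, 250 in the vehicle mouse and 140, 48.5 and 34.6 in the BRQ mice, a log2 difference of -2.41 (SE 0.57, edgeR adjusted p = 0.731). All BRQ mice lay under both NTB mice for Pcna, from 9, 2 and 1 UMIs. Pcna was called without Scrublet doublets (edgeR adjusted p = 0.0332), without the BRQ mouse of pool 1 (0.0062) and without the filter on low counts (0.0347). In 13 of 16 alternatives it stayed uncalled, and its log2 difference ran from -3.42 to -1.57. Gria3, Olfm4 and Apoe were called without the filter on low counts as well, and Gria3 and Olfm4 also without the BRQ mouse of pool 1. Gria3, a glutamate receptor subunit, was at 0 and 9.9 CPM in NTB and 78, 121 and 450 in BRQ mice (4.58, SE 1.18, edgeR adjusted p = 0.731). Olfm4, a granule protein of neutrophils, was at 18.6 and 554 CPM in NTB and 15.6, 0 and 0 in BRQ mice (-5.09, SE 1.27, edgeR adjusted p = 0.731), so 1 NTB mouse held most of it. Apoe, a macrophage lipid carrier, came almost wholly from 1 NTB mouse at 1020 CPM and the vehicle mouse at 968 (-4.45, SE 1.2, edgeR adjusted p = 0.794). Myb, a progenitor transcription factor, overlapped between groups (2.62, SE 0.78, edgeR adjusted p = 0.9995).

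**Figure D5:**
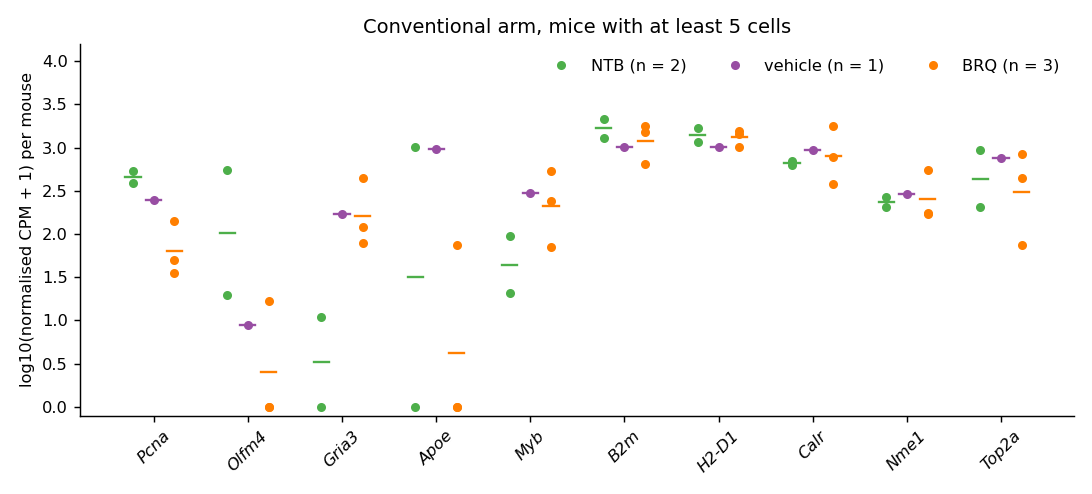
Points give log10(normalised CPM + 1) of each mouse with at least 5 conventional cells (2 NTB, 1 vehicle and 3 BRQ mice) and short lines the group mean, for the 5 genes with the smallest p and 5 genes of the fixed lists. Pcna separated BRQ from NTB mice, at 34.6 to 140 against 386 and 539 CPM, while B2m, H2-D1, Calr, Nme1 and Top2a overlapped.

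Most tested genes of the S phase list, which holds Pcna itself, lay the same way. Of these 11 genes, Pcna among them, 9 were lower in BRQ mice and 0 were called at these settings. Their median log2 difference was -1.07 beside 0.03 over all 2119 genes. Rrm1 (0.30) and Rfc2 (0.21) were higher. Without the BRQ mouse of pool 1, 9 genes were called lower and 4 higher. Pclaf, Hist1h1b, Hist1h2ap, Hist1h2ae and Hist1h1e were among the lower ones. Mcm5, a helicase subunit named after its values were seen, was at 149 and 267 CPM in NTB and 62.4, 24.3 and 34.6 in BRQ mice. It did not overlap between groups, from 1 to 4 UMIs in BRQ mice. Among 20 G2 and M phase genes tested, 12 were higher and 8 lower in BRQ mice (median 0.48), with Hmgb2 and Top2a, its most abundant members, at -0.04 (SE 0.48) and -0.33 (SE 0.68). The 3 members with an unadjusted p under 0.05 were higher, Cenpf at 1.89, Ccnb2 at 1.76 and Cdc20 at 2.88, and Cenpf was called at 7.99 without the pool 3 NTB mouse. A difference between the 2 lists was not tested.

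Over all genes 47.4% were lower in BRQ mice. In the class II list 5 of 13 tested genes were higher and 8 lower (median -0.12), and without the 3 genes of the rule 5 were higher and 5 lower (median -0.038). H2-Eb1, outside the rule, was at 4331 and 1287 CPM in NTB and 1279, 4078 and 2388 in BRQ mice, so the 2 NTB mice differed more than the groups. In the class I list 11 of 12 (91.7%) were lower (median -0.40) and 0 were called, with B2m at -0.41 (SE 0.46) and H2-D1 at -0.08 (SE 0.42). Among type 1 cDC genes 9 of 11 were lower (median -0.72). So were 4 of 6 type 2 cDC genes (median -0.33) and 6 of 6 monocyte genes (median -0.57), and 0 of them were called. Clec9a was at 242 and 208 CPM in NTB and 93.6, 121 and 34.6 in BRQ mice (-1.32, SE 0.58, edgeR adjusted p = 0.9995). Xcr1 was at 282 and 39.2 CPM before scaling in NTB and 12.9, 574 and 0 in BRQ mice. Cells with only Xcr1 or Clec9a were 0 of 2, 6 of 12 and 9 of 15 in the 3 NTB mice in order of pool. The same class made up 8 of 20 cells in the vehicle mouse of pool 1 and 1 of 2 in that of pool 3, and 2 of 7, 3 of 9 and 0 of 6 in the BRQ mice. Their part in the gene differences was not tested.

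The remaining lists had no called gene at these settings. Pyrimidine genes had 5 of 6 higher (median 0.24), with Nme2 at 0.22 (SE 0.56) and Nme1 at 0.40 (SE 0.55), and both turned direction with pool as a block (-0.82 and -0.45) and without Scrublet doublets (-0.71 and -0.69). Chaperones had 15 of 24 higher (median 0.15), with Calr at 0.58 (SE 0.53) and Sec61b at 0.63 (SE 0.46), and Calr turned direction with pool as a block (-0.25), without Scrublet doublets (-0.23) and with limits read as UMIs (-0.20). Interferon-stimulated genes had 3 of 4 lower, with Ifitm3 at 0.39 (SE 0.58) and Ifi27l2a at -0.92 (SE 0.58). Of the activation list Marcks was at -0.45 (SE 0.51) and Il4i1 at 5.97 (SE 2.59), the latter at 0 in both NTB mice and in 1 BRQ mouse. Of the p53 list only Btg2 was tested, at -0.14 (SE 0.64), and Slbp of the S phase list was at -0.33 (SE 0.57). Neutrophil genes had 7 of 9 lower (median -0.55), with Retnlg (2.82) and Ltf (2.17) higher, and granulocyte-monocyte progenitor genes 7 of 8 higher (median 1.05), and their part in the differences of other genes was not tested. Members of these lists were called under some alternatives, Camp under 4, Ctsg and Retnlg under 3 each, Ngp under 2 and Elane, Ltf and Fcnb under 1 each.

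A difference of the group effect between the arms could not be fitted at the minimum of 5 cells, because no group had 2 mice with that many in both arms. With at least 1 cell in both arms, a setting chosen after seeing the data, edgeR tested 1097 genes over 2 NTB, 2 vehicle and 3 BRQ mice. It called 2 genes (0.182%) for vehicle against NTB, 1 (0.0912%) for BRQ against vehicle and 0 for BRQ against NTB, where 22 genes had an unadjusted p under 0.05. The called genes were the neutrophil granule genes Camp and Ngp, whose values stand in the closing section. Neither was called without the vehicle mouse of pool 1. Leaving out each mouse in turn gave 1 to 9, 0 to 5 and 0 to 2 called genes for the 3 contrasts.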

How the data were processed

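Single-cell RNA-seq libraries (10x Genomics 3′ chemistry) with hashtag libraries were made from 3 pools of c-Kit-enriched marrow. The authors deposited raw UMI counts per gene and barcode from Cell Ranger 6.0.0 on mm10, per the labels, which also name Seurat. No deposited cell type annotation was used here. The study words its limits of 500 and 7500 as transcripts, and they were read as detected genes.

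Mice were assigned per pool with HTODemux in Seurat 5.3.0, and only singlets entered comparisons between mice. Scrublet (scanpy 1.11.5) marked doublets, which were kept in the main values and removed in an alternative. The members and gene lists were chosen with earlier results of these data known. Genes named by level were those of the rule, its markers and identity lists. Genes named by rule from the comparison of groups were the 2 most abundant members of each pathway list, and, since fewer than 5 genes were called, the 5 with the smallest p among genes with a mean of at least 20 CPM. Others were named there outside this rule. Cenpf, Ccnb2 and Cdc20 were picked by unadjusted p. Mcm5, Clec9a, Xcr1, H2-Eb1, Retnlg and Ltf, and Irf8 and Dntt in the plasmacytoid arm, were not drawn by it either.

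Shares of singlets were compared over mice by two-sided exact permutation tests with Benjamini-Hochberg adjustment over 6 tests. Counts summed per mouse were tested with the edgeR 4.0.16 quasi-likelihood test (TMM, mice with at least 5 cells, Benjamini-Hochberg, adjusted p under 0.05), with DESeq2 1.42.0 as an alternative, after a check on simulated data. The vehicle mouse stayed in the fit for the spread. The difference of group effects between the arms was tested with the mouse as a block and at least 1 cell per arm, a minimum chosen after seeing the data. Exact binomial intervals (95%) and the limits for a count of 0 (3 counts) cover counting error only.

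Mice of a pool shared a lane, per the labels. In the conventional arm the deviations of NTB and BRQ mice from their group means correlated at r = 0.19 in pool 2 and -0.0946 in pool 3 across 2119 genes, which are not independent replicates. Between mice of different pools r ran from -0.278 to 0.278. With 2 NTB mice their deviations mirrored each other, so these values say little about pairing.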

Additional observations from a re-analysis of the deposited data

Results flagged for a closer look

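The group effect on 2 neutrophil granule genes differed between the arms by the interaction test (edgeR, at least 1 cell per mouse in both arms, 1097 genes). Camp, an antimicrobial peptide precursor, differed for vehicle against NTB by a log2 value of 10.05 (plasmacytoid minus conventional effect, edgeR adjusted p = 0.000161) and for BRQ against vehicle by -6.92 (edgeR adjusted p = 0.0101). Ngp differed for vehicle against NTB by 9.41 (edgeR adjusted p = 0.00928). Plasmacytoid cells of NTB mice had 3 and 1 UMIs of Camp, those of vehicle mice had 147 and 1, and those of BRQ mice had 0, 5 and 1. Conventional cells of NTB mice had 687 and 711 UMIs of it, those of vehicle mice had 21 and 1, and those of BRQ mice had 43, 5 and 152. Of the plasmacytoid Camp and Ngp counts, those of the vehicle mouse of pool 1 (147 and 65 UMIs from 6 cells) stood apart from the rest. Without that mouse the vehicle against NTB differences were 7.0 for Camp (edgeR adjusted p = 0.736) and 6.60 for Ngp (edgeR adjusted p = 1), with 1 vehicle mouse assumed to vary like the others. The BRQ against vehicle difference of Camp was then -3.84 (edgeR adjusted p = 0.928), and without the BRQ mouse of pool 1 it was -6.60 (edgeR adjusted p = 0.168). Ngp without that BRQ mouse was at 9.39 for vehicle against NTB (edgeR adjusted p = 0.143).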

How the results depend on the processing

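No share passed 0.05 under any alternative, which these numbers of mice did not allow. With the replicate block (sign changes within pools) each plasmacytoid p was 0.75 and the conventional p was 0.5 for vehicle against NTB, 1 for BRQ against vehicle and 0.25 for BRQ against NTB, the last being the smallest it allows, and the block left the gene count of the conventional arm at 0. It changed no other call. Leaving out 1 mouse at a time, the plasmacytoid difference in percentage points ran from -0.0641 to 0.0575 for vehicle minus NTB, -0.0214 to 0.0865 for BRQ minus vehicle and -0.0294 to 0.0853 for BRQ minus NTB. In the conventional arm it ran from -0.551 to -0.192, -0.134 to 0.226 and -0.46 to -0.182. The plasmacytoid BRQ minus NTB difference turned to -0.15 with hashtag ratios and -0.0223 without cells holding B cell transcripts. The conventional BRQ minus vehicle difference turned to -0.0255 without Scrublet doublets and -0.00585 without cells holding B cell transcripts. With the 500 and 7500 limits read as UMIs, BRQ minus NTB was 0.211 in the plasmacytoid and -0.000717 in the conventional arm, and plasmacytoid BRQ minus vehicle was 0.239.

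Genes called between BRQ and NTB in the conventional arm were 11 without a filter on low counts, 1 without Scrublet doublets, 1 with hashtag ratios, 2 without cells holding B cell transcripts and 0 to 13 when 1 mouse was left out. Where that left 1 NTB mouse, it was assumed to vary like the others. A minimum of 10 cells left no fit.

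The genes recomputed under each alternative were the 5 with the smallest p and the most abundant pathway members, 19 in all, and not the rule's genes, markers or identity genes. Of their 301 alternative values, 248 kept direction and call, 10 passed the threshold and 43 turned direction. With the replicate block H2-D1 was at 0.11, Calr at -0.25, Nme2 at -0.82, Nme1 at -0.45 and Btg2 at 0.25 (log2). Without Scrublet doublets Calr was at -0.23, Nme2 at -0.71, Nme1 at -0.69, Btg2 at 0.18 and Hmgb2 at 0.27. With limits as UMIs Calr was at -0.20, Nme2 at -0.43, Hmgb2 at 0.62 and Top2a at 0.64. Without B cell transcripts Calr was at -0.18, Nme2 at -0.29 and Btg2 at 0.47. With hashtag ratios H2-D1 was at 0.037, Nme2 at -0.02, Slbp at 0.063 and Hmgb2 at 0.11. With at least 1 cell per mouse H2-D1 was at 0.16 and Btg2 at 0.11, with stricter arms H2-D1 was at 0.065, and Hmgb2 was at 0.012 with DESeq2 size factors and 0.011 with its Wald test. Leaving out 1 mouse turned Apoe (-8.35 to 3.66), H2-D1 (-0.32 to 0.23), Marcks (-0.91 to 0.005), Ifitm3 (-0.09 to 0.90), Calr (-0.16 to 0.91), Nme2 (-0.81 to 0.53), Nme1 (-0.48 to 0.66), Btg2 (-0.66 to 0.50), Slbp (-0.90 to 1.04), Hmgb2 (-0.64 to 0.69) and Top2a (-1.30 to 1.18). The causes were not tested.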
